A study of Mus musculus with 4 samples.

Results

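The genes described here are 10 that define T cells or build the T cell receptor complex, Cd3d, Cd3e, Cd3g, Cd4, Cd8a, Cd8b1, Cd5, Cd28, Thy1 and Lck, out of 21755 protein-coding genes annotated on the autosomes and the X chromosome. They were chosen for their role in T cells and not by a measured value, though with earlier results of these data known. Each was followed over its gene body with flanks of 25 kb, and overlapping stretches were merged, so that the 3 Cd3 genes share 1 locus and Cd8a shares 1 with Cd8b1. This gave 7 loci with a total length of 578.9 kb. The chromatin was that of natural killer (NK) cells, profiled by DNase-seq, in which dense cutting by the nuclease DNase I marks accessible DNA. All 4 libraries came from primary NK cells of female B6CASTF1/J mice, an F1 hybrid strain, at an age of 2 months, with no treatment named in the labels. They are labelled as biological replicates, numbered 1 to 4, of the same cell type. There is no second condition, and all of them carry the same donor identifier. Neither tissue nor sort is stated, and the spread over the 4 libraries may be partly technical.

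The T cell receptor has no signalling tail of its own. It depends on the CD3 gamma, delta and epsilon chains, encoded side by side by Cd3g, Cd3d and Cd3e, and on the zeta chain, encoded by Cd247. CD4 and CD8 are coreceptors that bind MHC molecules and bring the kinase Lck to the receptor, where it phosphorylates the CD3 and zeta chains. CD28 delivers a costimulatory signal, CD5 dampens receptor signalling, and Thy1 is a membrane-anchored glycoprotein of T cells that also occurs on other lymphocytes. NK cells kill without a rearranged receptor, but they share many signalling proteins with T cells. Lck is known for a proximal and a distal promoter, and an enhancer is known at the 3' end of Cd3d.

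A peak is a stretch that the authors called accessible in 1 library, and its signal is the authors' own value, in a unit that is not stated. Regions are peaks merged over the libraries, and a region is called recurrent where at least 3 of 4 libraries have a peak. The libraries held between 36247 and 69144 peaks, with the most in replicate 3 and the fewest in replicate 4, and the median signal of all peaks lay between 0.922 and 1.08. Of 8 NK cell markers 5 had a recurrent region at a start, against 54.7% of all protein-coding genes. Each of the 8 had a start peak in some library, but Klrb1c had it in replicate 3 only and Tbx21 and Klrk1 in 2 libraries each. The summed start signal of the NK markers was 18.2, 20.1, 52.0 and 18.4 in replicates 1 to 4. Among markers of other cells, 6 of 8 myeloid genes, including Lyz2 and Csf1r, and 6 of 8 erythroid genes had no start peak in any library. Of 8 B cell markers 6 had a recurrent region at a start, and the summed start signal of the 8 was 7.21, 13.4, 7.07 and 10.5. A start peak was present for 5, 7, 3 and 7 of these markers in replicates 1 to 4. Blk counts among the 6, though only 2 libraries had a peak within 1 kb of its starts. The part that other cells had in the accessibility of the T cell genes was not tested.

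The 5' ends were mostly closed. A recurrent region lay within 1 kb of the annotated 5' end of 2 of the 10 genes, Cd3g and Lck, against 50.3% of all protein-coding genes. When every annotated transcript start was checked, Cd3d and Cd28 were added, giving 4 of 10 against 54.7% of all genes. Cd5 had peaks near its starts, each start in 2 libraries, but no recurrent region, and Cd3e, Cd4, Cd8a, Cd8b1 and Thy1 had no peak near any start in any library. The call for Cd3g rests on replicates 1, 2 and 3. Without any one of them, with 3 libraries still required, Lck alone had a recurrent region at its 5' end.

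**Figure D1:**
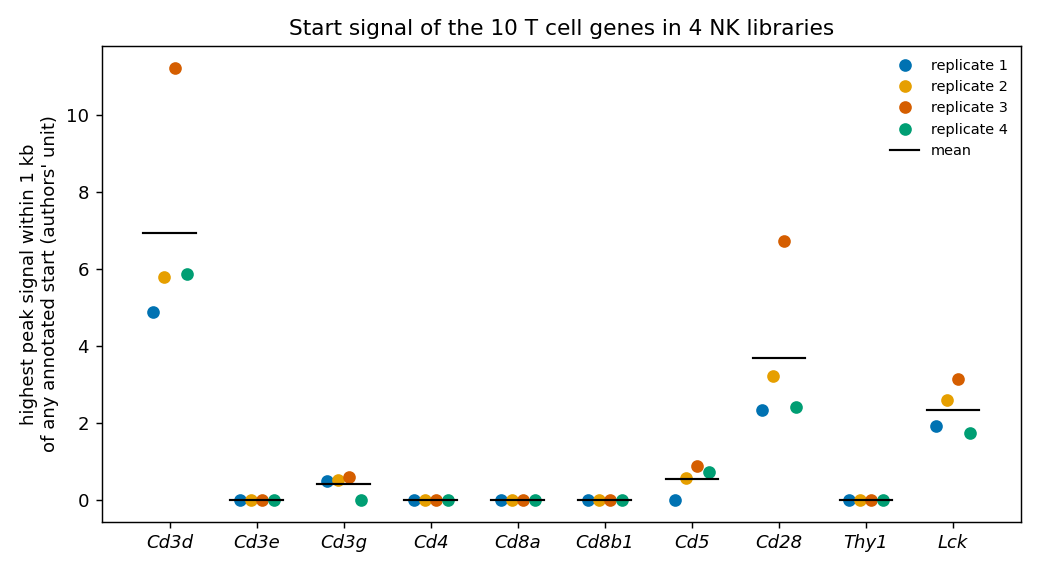
Highest peak signal within 1 kb of any annotated transcript start, in the authors' unit, for the 10 T cell genes; points are the 4 libraries, 0 stands for no peak, and lines are means. Cd3d, Cd28 and Lck have a peak in all 4 libraries, and 5 genes are at 0 throughout.

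The genes with a start peak in all 4 libraries kept 1 order in each library, with Cd3d above Cd28 and Cd28 above Lck. The range over libraries was 4.90 to 11.2 for Cd3d, 2.34 to 6.73 for Cd28 and 1.73 to 3.15 for Lck. That of Cd28 overlapped both others, and those of Cd3d and Lck did not overlap. For Lck the highest peak lay near starts of retained-intron transcripts in replicates 1 to 3 and at the 5' end in replicate 4. The place of Cd3d depends on the 1 kb window: with 500 bp its mean was 2.24, below the means of Cd28 at 3.68 and Lck at 2.35. Cd5, at 0, 0.584, 0.880 and 0.730, and Cd3g, at 0.505, 0.534, 0.598 and 0, did not keep an order between them.

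The Cd3 cluster (mm10 chromosome 9) held 7 recurrent regions in 90.06 kb. Its 3 genes differed: Cd3d had a strong region in its 3' part, Cd3g a weak one at its start, and Cd3e none. Cd3d (chr9:44981786-44987339, plus strand), which encodes the delta chain, had no peak within 1 kb of its annotated 5' end in any library. Its region at chr9:44986441-44986780 lies 4825 bp downstream of that end, within sequence annotated as UTR. The signal there was 4.90, 5.80, 11.2 and 5.87 in replicates 1 to 4, with a mean of 6.95 ± 2.89 (SD, n = 4). All 4 values were several times the median peak of their libraries, and replicate 3 stood above the rest. The region counts as a start region only because 2 shorter annotated transcripts begin nearby, a protein-coding one at 44985823 and a retained-intron one at 44985952. Start and enhancer activity were not measured.

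The accessible stretch of Cd3d was wider than this 1 peak. Bases at which the authors gave the cut rate a false discovery rate (FDR) below 0.001 numbered 1502, 1135, 1586 and 611 in the gene body, or 27.0%, 20.4%, 28.6% and 11.0% of its length. In all 4 libraries they began no earlier than 44985655 and ended by 44987252, so the first part of the gene held none. A weaker region directly upstream, chr9:44985841-44986260, had signals of 1.21, 1.13 and 1.36 in replicates 1 to 3 and no peak in replicate 4.

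Footprints are short stretches inside accessible DNA that the authors found protected from cutting. In the Cd3d region 8, 6, 7 and 3 footprints were listed in replicates 1 to 4, and 3 stretches lay in a footprint of at least 3 libraries. These stretches, on the plus strand at chr9:44986561-44986567, chr9:44986653-44986667 and chr9:44986728-44986740, are shown because they mark where protection recurred in the strongest peak near a start of the 10 genes. Every base is capital because all lie in such a footprint.
Cd3d stretch 1: CCTTGGC
Cd3d stretch 2: AACTTCCGGGATTTT
Cd3d stretch 3: TCCATGACATCAT
None of the fixed motifs listed further on occurs as an exact match in the Cd3d region. Stretch 2 reads CGGAAGT on the minus strand, which differs from the fixed ETS motif AGGAAGT in its first letter. Near matches of this kind were not counted.

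Cd3g (chr9:44969572-44980431, minus strand), which encodes the gamma chain, had a weak region across its 5' end, chr9:44980421-44980565. The signal was 0.505, 0.534 and 0.598 in replicates 1 to 3, and replicate 4 had no peak, for a mean of 0.409 ± 0.276 (SD, n = 4). These values are below the median peak of each library. No base near the 5' end had an FDR below 0.001, and 85, 90, 190 and 0 bases were listed at any FDR, that is below 0.05. The part of the region outside the transcript, chr9:44980432-44980565, is shown as the start sequence of the only CD3 gene with a region there. On the plus strand it held no base in a footprint of at least 3 libraries, so it has no capitals.
Cd3g start: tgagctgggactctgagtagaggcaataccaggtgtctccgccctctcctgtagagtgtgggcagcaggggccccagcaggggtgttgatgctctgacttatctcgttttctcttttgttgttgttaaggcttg
It holds the GATA motif AGATAAG on the minus strand, which 1.11% of all recurrent regions hold in their central 150 bp.

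Cd3e (chr9:44998740-45009627, minus strand), which encodes the epsilon chain, had no peak near a start and no base listed in its gene body in any library. Outside Cd3d, the nearest recurrent regions on either side of it were weak and intergenic. One, chr9:44998181-44998423, lies just beyond the 3' end of Cd3e, with signals of 0.552, 0.624, 1.03 and 0. The other, chr9:45022881-45023100, lies 13.4 kb upstream of it, with signals of 1.07, 0.856, 1.29 and 0.682 and a mean of 0.974 ± 0.262 (SD, n = 4).

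The strongest distal region of the cluster, meaning one with no part within 1 kb of any start of a protein-coding gene, was chr9:44966901-44967120, between Cd3g and Ube4a. Its signal was 2.37, 2.09, 2.76 and 1.05, with a mean of 2.07 ± 0.733 (SD, n = 4), and 57 of its 220 bases lay in a footprint of at least 3 libraries. These are the capitals below, on the plus strand.
Cd3 cluster distal region: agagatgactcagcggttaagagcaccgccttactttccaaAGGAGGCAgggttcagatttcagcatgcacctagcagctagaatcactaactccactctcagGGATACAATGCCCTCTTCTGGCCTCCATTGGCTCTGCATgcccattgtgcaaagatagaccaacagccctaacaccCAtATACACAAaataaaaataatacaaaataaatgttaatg
The start of Ube4a, a ubiquitin chain elongation factor, was the strongest region of the locus, at 11.2, 15.9, 19.4 and 10.5.

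**Figure D2:**
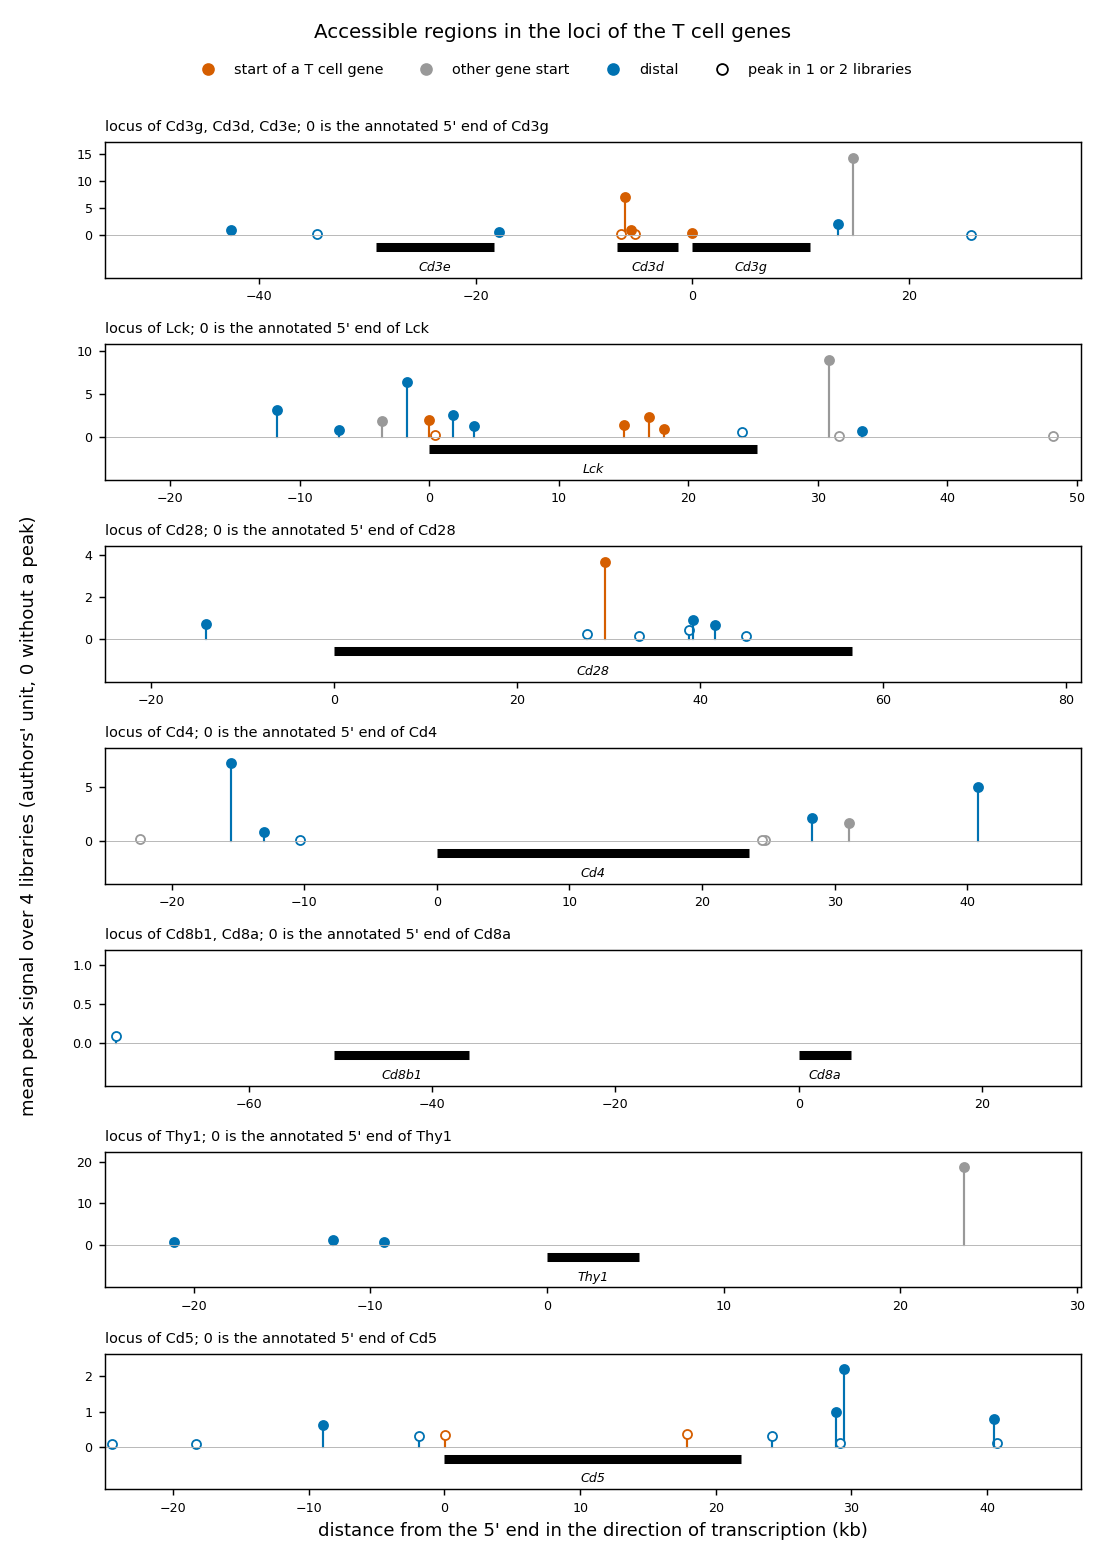
Regions in the 7 loci; the x axis is the distance in kb from the annotated 5' end of the named gene in its direction of transcription, the y axis is the mean peak signal over 4 libraries, and bars mark gene bodies. Filled points are recurrent regions, open points have a peak in 1 or 2 libraries; the Cd8 panel has a single open point, and the Cd3d region reaches 6.95.

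The coreceptor genes of the CD8 dimer were the most closed of the 10. Cd8a (chr6:71373427-71379173, plus strand) and Cd8b1 (chr6:71322788-71337494, plus strand) had no peak near a start, no base listed in the gene body and no base with an FDR below 0.001 in their 106.4 kb locus. The locus held 1 peak in all, in an intron of Smyd1 in replicate 3 with a signal of 0.374, and 1 footprint, also in replicate 3. Of all protein-coding genes, 22% had no base with an FDR below 0.001 in the same kind of locus in any library. Among the 10 genes these were Cd8a and Cd8b1 alone.

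Cd4 (chr6:124864692-124888221, minus strand), whose product is the coreceptor of helper T cells, had a closed gene body inside an accessible neighbourhood. No base of the gene body was listed in any library, but 5 recurrent regions lay in its 73.53 kb locus, 4 of them distal. The strongest, the intergenic chr6:124903641-124903860, lies 15.5 kb upstream of the 5' end. Its signal was 7.09, 7.27, 9.50 and 4.75, with a mean of 7.15 ± 1.94 (SD, n = 4), the highest of any distal region in the 7 loci. Each library listed 3 footprints there, and 63 of its 220 bases lay in a footprint of at least 3 libraries. Its sequence on the plus strand is shown because these footprints, in capitals, form long runs.
Cd4 upstream region: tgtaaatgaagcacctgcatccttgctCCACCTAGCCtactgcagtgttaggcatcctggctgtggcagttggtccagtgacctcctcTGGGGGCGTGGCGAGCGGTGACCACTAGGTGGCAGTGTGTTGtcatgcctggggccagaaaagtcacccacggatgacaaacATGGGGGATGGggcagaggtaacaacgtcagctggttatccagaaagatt
The capitals include a match to CNAGNNGGC, a wider form of the motif of CTCF, a factor that binds at chromatin loop anchors. This form was chosen after the sequences were seen and occurs in 21.9% of all recurrent regions. Another upstream region, chr6:124901141-124901420, lies 13.1 kb from the 5' end and had no peak in replicate 1 and signals of 0.624, 1.54 and 1.27 in replicates 2 to 4. On the other side of Cd4, a region in an intron of P3h3 had signals of 5.48, 5.85, 5.71 and 2.70, so replicate 4 was low there. Lag3, a neighbour that encodes a CD4-like inhibitory receptor and was named after its values were seen, had 1 peak near a start, in replicate 3 with a signal of 0.640.

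Across the coreceptor, CD3 and Thy1 genes, 5 of the 10 had no base listed in the gene body in any library, namely Cd3e, Cd4, Cd8a, Cd8b1 and Thy1. Of all protein-coding genes 28.6% had none.

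Lck (chr4:129548344-129573641, minus strand), the Src family kinase that starts T cell receptor signalling, had the most regions. Its 75.3 kb locus held 12 recurrent regions, of which 4 lay at its own starts, 2 at starts of other genes and 6 were distal. At the annotated 5' end, 129573641, where a protein-coding transcript begins, the signal was 1.40, 1.66, 2.89 and 1.73, with a mean of 1.92 ± 0.663 (SD, n = 4). At the downstream coding starts, 129558372 and 129558391, it was 1.49, 1.25, 2.05 and 0.894, with a mean of 1.42 ± 0.487. The ranges of the upstream and the downstream start overlapped, and replicate 1 had the higher value downstream while the other libraries had it upstream. Another region near annotated starts, chr4:129556521-129556740 in a coding exon near starts of retained-intron transcripts, had 1.92, 2.60, 3.15 and 1.41, with a mean of 2.27 ± 0.761.

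The strongest region of Lck was not at a start. The intergenic chr4:129575261-129575500 lies 1.74 kb upstream of the 5' end, with signals of 4.02, 6.28, 10.3 and 4.93 and a mean of 6.39 ± 2.78 (SD, n = 4). In every library it exceeded the 5' end itself. It held between 4 and 5 footprints in each library. Its sequence, the flank of the 5' end at chr4:129573642-129573780 and the exon region are shown as the strongest region, the flank of the annotated start and the strongest region near a start. The flank was added after its values were seen. All are on the plus strand, with bases in a footprint of at least 3 libraries in capitals.
Lck upstream region: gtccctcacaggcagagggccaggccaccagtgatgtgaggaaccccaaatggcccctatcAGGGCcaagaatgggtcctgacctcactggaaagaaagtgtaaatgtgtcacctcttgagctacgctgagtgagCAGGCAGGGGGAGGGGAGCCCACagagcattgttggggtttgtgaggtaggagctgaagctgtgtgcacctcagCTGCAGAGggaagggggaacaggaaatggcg
Lck 5' flank: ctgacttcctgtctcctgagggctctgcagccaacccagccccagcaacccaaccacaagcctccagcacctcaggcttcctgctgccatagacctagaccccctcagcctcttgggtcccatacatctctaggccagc
Lck exon region: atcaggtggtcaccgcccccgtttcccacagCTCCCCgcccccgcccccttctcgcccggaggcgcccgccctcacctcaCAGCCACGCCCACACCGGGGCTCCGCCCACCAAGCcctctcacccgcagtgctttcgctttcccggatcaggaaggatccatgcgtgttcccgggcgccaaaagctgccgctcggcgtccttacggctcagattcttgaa
The 5' flank holds the RUNX motif TGTGGTT and the ETS motif AGGAAGT, both on the minus strand. Of all recurrent regions 5.91% hold the first and 8.66% the second in their central 150 bp.

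Other Lck regions were intronic or farther upstream. The intronic chr4:129571661-129571880 had 1.99, 1.94, 4.74 and 1.35, and chr4:129570061-129570340, also intronic, had 0.646, 0.644, 2.71 and 0.951. In both, replicate 3 was the highest library. The region 11.7 kb upstream, chr4:129585241-129585480, had 3.02, 3.94, 3.66 and 2.06, with a mean of 3.17 ± 0.835 (SD, n = 4). It held the CTCF core AGGGGGC, with all 7 bases in a footprint of at least 3 libraries. The neighbouring start of Hdac1, a histone deacetylase, had 5.78, 8.12, 11.95 and 10.02, and that of Fam167b had 1.84 ± 0.511.

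Cd28 (chr1:60716800-60773359, plus strand), the costimulatory receptor, was open at its coding start and not at its annotated 5' end. The 5' end, 60716800, belongs to a noncoding transcript and had no peak in any library. At the coding start, 60746358, the region chr1:60746261-60746500 had signals of 2.34, 3.23, 6.73 and 2.42, with a mean of 3.68 ± 2.07 (SD, n = 4). Replicate 3 was the highest and the other libraries lay close together. The flank upstream of the coding start, chr1:60746261-60746357, is shown on the plus strand. It held no base in a footprint of at least 3 libraries, so it has no capitals.
Cd28 start flank: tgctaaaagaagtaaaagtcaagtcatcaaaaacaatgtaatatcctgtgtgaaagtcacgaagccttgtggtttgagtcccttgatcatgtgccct
It holds the RUNX motif TGTGGTT on the plus strand. In an intron of Cd28, chr1:60755921-60756200 had 0.823, 0.936, 1.08 and 0.778, a narrow spread with a mean of 0.904 ± 0.135. Another intronic region, chr1:60758242-60758520, had a mean of 0.685 ± 0.167 and an intergenic one, chr1:60702741-60702968, a mean of 0.719 ± 0.305. Bases with an FDR below 0.001 made up 0.445%, 0.551%, 1.57% and 0.436% of the 106.6 kb locus, so that replicate 3 stood apart.

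Cd5 (chr19:10717116-10739002, minus strand), which encodes an inhibitor of receptor signalling, had no recurrent region at a start. Peaks across the 5' end were listed in replicates 2 and 4 only, with signals of 0.584 and 0.730, and peaks near the downstream start 10722074 in replicates 2 and 3 only, with 0.574 and 0.880. The 4 recurrent regions of its 71.89 kb locus were all distal. The strongest, chr19:10709441-10709640, lies in an intron of Vps37c, a gene for endosomal sorting, with signals of 2.24, 2.64, 2.70 and 1.23 and a mean of 2.20 ± 0.679 (SD, n = 4). Its plus strand is shown because 66 of its 200 bases lay in a footprint of at least 3 libraries, the capitals below.
Cd5 locus distal region: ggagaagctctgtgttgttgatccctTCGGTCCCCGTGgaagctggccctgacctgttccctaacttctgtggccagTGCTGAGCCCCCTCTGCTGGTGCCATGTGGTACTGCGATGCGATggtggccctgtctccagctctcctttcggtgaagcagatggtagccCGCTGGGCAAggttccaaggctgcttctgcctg
All 7 bases of its match to the CTCF core AGGGGGC, on the minus strand, lay in such a footprint. The other regions were weak, with 1.00 ± 0.201 at chr19:10710001-10710320 and 0.617 ± 0.145 at chr19:10747821-10748100.

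Thy1 (chr9:44043384-44048579, plus strand) had no peak near any of its starts and no base listed in its gene body. Near its 5' end 9 bases were listed, in replicate 3. Of 3 distal recurrent regions, the one 12.1 kb upstream, chr9:44031101-44031472, had signals of 0.975, 0.866, 2.32 and 0.750, with a mean of 1.23 ± 0.733 (SD, n = 4). The other 2 had peaks in replicates 1 to 3 and none in replicate 4. The start of Usp2, a deubiquitinase gene whose region also overlaps Gm49380, was the strongest region of any of the 7 loci, at 17.1, 20.8, 22.5 and 14.4.

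Counted once over the 7 loci, there were 61 regions, of which 36 were recurrent and 26 had a peak in all 4 libraries. Of the recurrent ones 8 lay at starts of the 10 genes, 5 at starts of neighbours and 23 were distal. Counted per gene instead, neighbours such as the Cd3 genes can share regions. By this count at least 1 distal recurrent region lay in the locus of 8 of the 10 genes, against 54.7% of all protein-coding genes. The median was 2.5 per gene against 1. The exceptions were Cd8a and Cd8b1, and Lck had the most with 6. Of the 7 merged loci, only that of Cd8a and Cd8b1 had none.

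All 10 genes have few CpG dinucleotides at their annotated 5' ends. The observed over expected CpG ratio within 500 bp on either side lay between 0.159 for Cd28 and 0.431 for Thy1, against a median of 0.558 over all genes. Among the 9042 genes with a ratio no higher than that of Thy1, 11.8% had a recurrent region at the 5' end. The 20% of the T cell genes, 2 of 10, lies above this share and below the 50.3% of all genes. With the shorter peak list, or with a peak required in all 4 libraries, the count was 1 of 10. The share of the 9042 genes under those settings was not computed, so the place relative to 11.8% is not settled.

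The loci were then compared with those of 12 NK receptor, effector and regulator genes, such as Ncr1, Prf1 and Eomes, which form 11 merged loci of 663.9 kb. Bases with an FDR below 0.001 made up 1.49%, 1.70%, 2.43% and 1.11% of the T cell gene loci, with a mean of 1.68% ± 0.555 (SD, n = 4). In the NK loci they made up 2.70%, 3.18%, 6.72% and 2.67%, with a mean of 3.82% ± 1.95. The difference was -1.21, -1.47, -4.30 and -1.56 percentage points, with a mean of -2.14 ± 1.45, and the T cell gene loci were lower in 4 of 4 libraries. In the exact two-sided sign-flip permutation test 2 of 16 sign patterns gave a mean at least this far from 0, the fewest that 4 pairs allow, so the design cannot reach a p of 0.05. Without replicate 3 the mean difference was -1.41, and with bases near starts of other genes left out it was -2.16 ± 1.31. Over all protein-coding loci the share was 0.757%, 0.832%, 1.23% and 0.562%, below the T cell gene loci in every library.

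**Figure D3:**
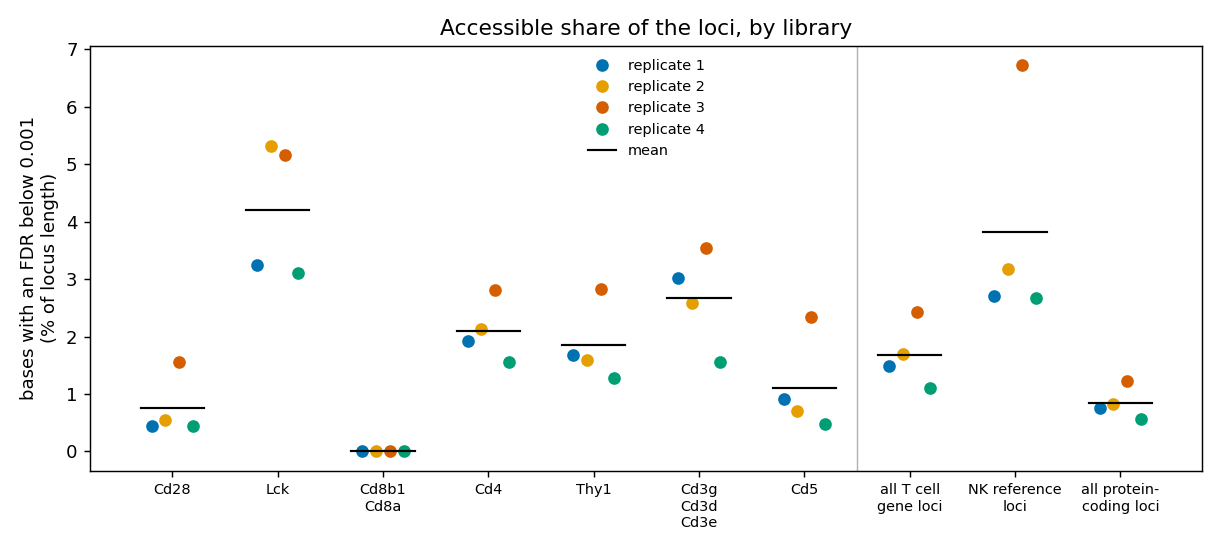
Bases with an FDR below 0.001 as a percentage of locus length, for each of the 7 loci and for 3 sets of loci to the right of the grey line; points are the 4 libraries and lines are means. Lck has the highest mean of the 7 loci at 4.21%, the Cd8 locus is at 0, and the NK reference loci lie above the T cell gene loci in each library.

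Among the single loci, Lck led with 3.25%, 5.31%, 5.16% and 3.11% (mean 4.21% ± 1.19). It was above the pooled NK loci in replicates 1, 2 and 4 and below them in replicate 3. The Cd3 cluster followed with a mean of 2.68% ± 0.839, then Cd4 with 2.10% ± 0.535, Thy1 with 1.85% ± 0.678, Cd5 with 1.10% ± 0.839 and Cd28 with 0.749% ± 0.547. The Cd3 cluster was above Cd4 and Thy1 in each library, though the ranges over libraries overlapped. Cd4 was above Thy1 in replicates 1, 2 and 4 and just below it in replicate 3, at 2.82% against 2.83%. The order of Cd4 and Thy1 is therefore not fixed. These shares cover whole loci, with the flanks and the starts of neighbouring genes. In the gene bodies of Cd4 and Thy1 no base had an FDR below 0.001 in any library. The gene body of Cd28 held 358, 482, 1329 and 465 such bases and that of Lck 381, 1481, 1683 and 953. That of Cd5 held 239, in replicate 3 only. Shares of single loci without bases near other genes' starts were not computed. Recurrent regions numbered 6.22 per 100 kb in the T cell gene loci, 13.1 in the NK loci and 2.22 over all protein-coding loci. Footprints followed the same order, with 17.4 ± 5.23, 46.0 ± 22.0 and 8.14 ± 2.27 per 100 kb. Lck had 50.8 ± 16.3.

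Replicate 3 had the highest signal in 21 of the 26 regions with a peak in all 4 libraries (80.8%), close to the 77.2% of 27110 such regions over all chromosomes. The ratio of replicate 3 to the median of the other libraries had a median of 1.49 in the 26 regions and 1.46 over all. Within the 26 it ran from 0.884 at the coding exon region near the start of P3h3, in the Cd4 locus, to 4.19 at the Lck intron region 129570061. It was 2.78 at the Cd28 start, 2.09 at the Lck upstream region, 1.94 at the Cd3d region and 1.34 at the Cd4 upstream region.

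Partners of these genes in T cell receptor signalling and on the T cell surface were listed too. Of 24 such genes 16 (66.7%) had a recurrent region at the 5' end, against 50.3% of all genes, and 18 at any start. The highest start signals were those of Csk, the kinase that restrains Lck, at 7.33 ± 1.59, the kinase Fyn at 7.19 ± 1.08, the GTPase Rhoh at 5.04 ± 1.64 and the phosphatase Ptpn22 at 5.01 ± 2.49 (mean ± SD, n = 4). Cd6, which encodes a relative of CD5, and the receptor adaptor Trat1 had no peak in any library. Named after their values were seen, the zeta chain gene Cd247 had 1.19, 1.01, 3.20 and 0.827, the kinase Zap70 had 2.34, 1.93, 3.76 and 1.57, and the adaptor Lat had 1.79, 1.81, 2.48 and 1.55. All 3 had a recurrent region at the 5' end, while Cd3e did not.

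Of 15 T lineage transcription factors 11 (73.3%) had a recurrent region at the 5' end and 13 at any start. Ets1 led with 9.69 ± 2.06, followed by Tcf3 with 9.60 ± 2.74, Runx3 with 9.28 ± 3.66 and Zbtb7b, the factor of the CD4 lineage, with 9.25 ± 2.46. Tcf7, a factor of early T cell development, had no start peak in any library. The 10 T cell genes, at 20%, stood below both lists, a difference given as a description without a test. The CpG ratios of the listed genes were not compared with those of the T cell genes.

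**Figure D4:**
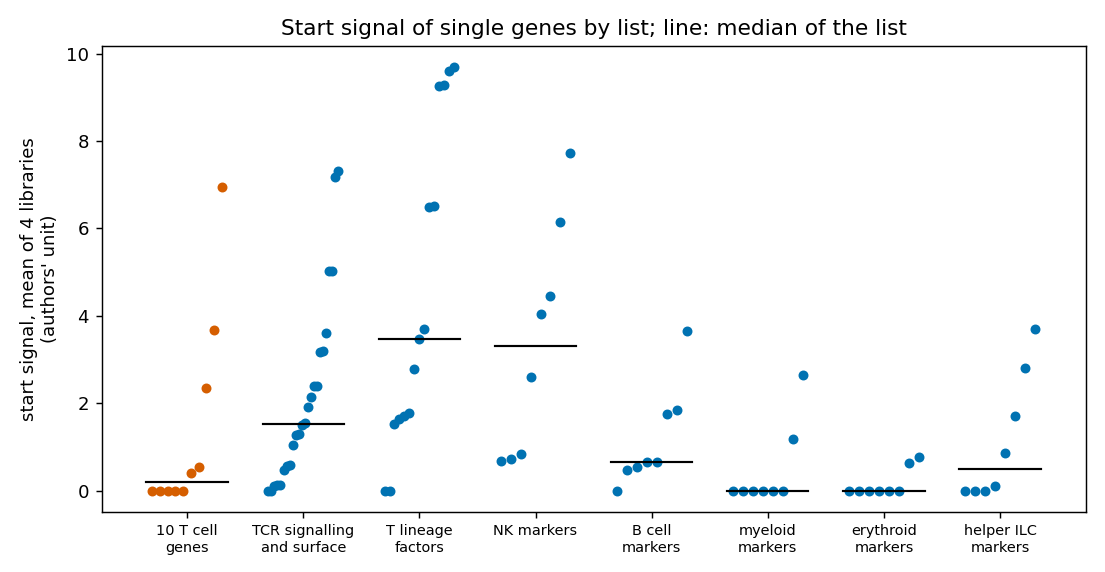
Mean start signal over 4 libraries, in the authors' unit, for single genes of each list; each point is a gene, 0 stands for no peak, and lines are list medians. Of the 10 T cell genes 5 sit at 0, while 2 of the 24 receptor signalling and surface genes and 2 of the 15 T lineage factors do.

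The gene whose 4 start signals were nearest to those of Cd3d was Ube2b, at a Euclidean distance of 0.0923 on the log2 scale over the 4 libraries. For Cd28 it was Cdkn2b at 0.183, and for Lck it was Adcy7 at 0.0521. Such likeness was common for Lck, with 211 genes within 0.25, and less so for Cd3d with 20 and Cd28 with 11.

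Motifs were searched on both strands in the central 150 bp of the 36 recurrent regions and of all 36595. The RUNX motif TGTGGTT was in 4 (11.1% against 5.91%) and the ETS motif AGGAAGT in 3 (8.33% against 8.66%). The GATA motif AGATAAG was in 2 (5.56% against 1.11%) and the T-box motif AGGTGTG in 2 (5.56% against 3.51%). The TCF and LEF motif ATCAAAG was in none, against 1.52% of all regions. The E box CAGCTG was in 3 (8.33% against 10.4%) and the SP and KLF motif GGGGCGG in 1 (2.78% against 13.6%). The CTCF core AGGGGGC was in 7 (19.4% against 10.9%), and its wider form in 8 (22.2% against 21.9%), and the 2 forms can overlap. A match describes the letters and not a bound factor.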

How the data were processed

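DNase-seq was read from 4 NK cell libraries, replicates 1 to 4 of 1 group, with positions on mm10. Per the file headers and the deposited readmes, the authors derived each file from 1 library's own filtered alignments, without pooling. Aligner and callers: not given in the sources used here. In the authors' peak lists each peak has a signal in whole multiples of a step specific to the library, and its scaling is not stated. The deposited FDR lists give a q-value-like FDR for runs of bases below 0.05, and the authors' footprints carry a constant p-value column of 0.01. Depth is unknown, so no counting interval is given. How reads from the CAST alleles of these hybrid mice were mapped was not tested.

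The longer of each library's 2 peak lists was used. Peaks that touch or overlap by 1 bp were merged over libraries. Starts and gene bodies came from GENCODE M21 on GRCm38.p6, and printed sequences came from RefSeq's copy of that assembly. The highest peak within 1 kb of a start is its signal, with 0 for no peak. Likeness used log2 of the signal over the library's median peak, plus 1. Scripts used Python 3.11.15 with numpy 2.4.6, pysam 0.24.0, scipy 1.17.1 and matplotlib 3.10.9, and were tested on simulated data. The only test is an exact sign-flip permutation over libraries.

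The genes and lists were chosen with earlier results of these data known. Named are all 10 T cell genes and neighbours with a start within 1 kb of a recurrent region. Of each companion list, up to 4 genes are named that have a peak in every library and the highest mean start signals. Up to 4 with no peak in any library are named too. Some other genes, such as Lag3, were named after their values were seen, as stated where they appear. Sequences are the strongest recurrent region near a gene's starts and the strongest distal region of each locus, without untranslated exons. Some of these are not printed, and some listed genes are not reported here. Alternatives were the shorter list, other windows, flanks, FDR limits and minimum numbers of libraries, and leaving out each library.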

Additional observations from a re-analysis of the deposited data

Results flagged for a closer look

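Over 43 sets of 4 values, 7 had 1 library far from the others, with a gap to the nearest library that, as a share of the whole range, passed Dixon's critical value for 4 samples. Chance flags about 1 set in 20, and these sets share libraries and regions. Of the 26 regions with a peak in all 4 libraries, 4 were among them. The region in the 3' part of Cd3d, chr9:44986441-44986780, had 4.90, 5.80, 11.2 and 5.87 in replicates 1 to 4, with a gap of 0.847 of the range at replicate 3. The Lck intron region chr4:129570061-129570340 had 0.646, 0.644, 2.71 and 0.951, with 0.851 at replicate 3. The region upstream of Thy1, chr9:44031101-44031472, had 0.975, 0.866, 2.32 and 0.750, with 0.856 at replicate 3. The P3h3 intron region in the Cd4 locus, chr6:124847361-124847540, had 5.48, 5.85, 5.71 and 2.70, with 0.881 at replicate 4, the low library.

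Of the Cd28 locus, 0.445%, 0.551%, 1.57% and 0.436% of bases had an FDR below 0.001, with a gap of 0.899 at replicate 3. The NK reference loci had a gap of 0.873 at replicate 3, and the summed start signal of the NK markers, 18.2, 20.1, 52.0 and 18.4, one of 0.945. Replicate 3 also had the most peaks of the 4 libraries, and the part of that number in these values was not tested.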

How the results depend on the processing

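No difference changed its sign. Of the main results 54 alternatives were labelled as unchanged and 14 as moved. Counts were labelled by a fixed factor, other values by an SD, and the difference from the NK loci by its sign alone. An unchanged label is therefore not always a close value. That difference was -2.80 percentage points with an FDR below 0.01 and -3.51 with all listed bases, against -2.14 as reported. Genes with a recurrent region at the 5' end, 2 as reported, were 1 with the shorter peak list, 1 with a peak required in all 4 libraries, 4 when any start was counted, and 1 to 2 when each library was left out. Recurrent regions went from 36 to 61 with 1 library sufficing and to 12 over gene bodies alone. Distal regions went from 23 to 14 with the shorter list, 38 with 1 library sufficing, 4 over gene bodies alone and 14 with 10 kb flanks, and ranged from 16 to 22 without each library. When a library was left out, a peak was still required in 3 libraries, that is in all that remained. The counts without each library therefore also reflect this stricter rule. The base share rose from 1.68% to 2.46% with all listed bases. The median ratio of replicate 3 fell from 1.49 to 1.15 by rank within each library. The base share difference from the NK loci ran from -2.44 to -1.41 without each library, with an exact p of 0.25 each, the smallest that 3 pairs allow. Of single genes, Cd3d fell to 2.24 with a window of 500 bp around its starts, which moved its mean from above those of Cd28 and Lck to below them, and Cd3g had 0 in the shorter list. Replicate numbers pair no sample groups, since there is a single group. Depth is unknown, so a start without a peak is a start without a peak at this depth.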

Other observations

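Gata3 encodes a transcription factor of T cells and of helper innate lymphoid cells. Its start signal was 5.28, 5.94, 2.41 and 1.12 in replicates 1 to 4, so that replicates 1 and 2 were above replicates 3 and 4. It was chosen after its values were seen. Of 8 helper innate lymphoid markers 4 had a recurrent region at any start, against 54.7% of all protein-coding genes. Il1rl1 and Il23r had no start peak in any library. The summed start signal of that list was 10.1, 11.6, 9.43 and 5.69. Foxp3, the factor of regulatory T cells, had 5.12, 6.54, 9.51 and 4.83 as the highest peak within 1 kb of any of its starts. Whether a start of a neighbouring gene lies near that peak was not checked. Foxp3 too was chosen after its values were seen.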
